A study of Mus musculus with 15 samples.

Results

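Tumor derived endothelial cells at day 2 (TDEC day 2) were compared with mouse brain microvascular endothelial cells (MBMEC) by RNA sequencing. The libraries were taken into the comparison by their sample labels: 3 TDEC day 2 libraries against 3 MBMEC libraries, 6 of the 15 libraries of the study. The TDECs came from 005, a GFP-carrying mouse glioma stem like cell line of C57BL/6 origin, which had been moved from serum-free stem cell medium to the endothelial growth medium EGM-2 in 1% oxygen for 2 days. MBMECs were purchased primary cells of the same strain, kept in another medium that held serum, and their oxygen was not given, so that cell type, medium and oxygen cannot be told apart in this comparison. No drug was given to either group. All TDECs descended from 1 line, and the labels do not say that the replicates were separate cultures, so the p-values measure the spread between these libraries, which may be technical. For the course of a gene over time, the 3 libraries of undifferentiated 005 and the 3 libraries of untreated TDECs, which stayed in the differentiation condition for longer but carry no day in their labels, were set beside the 6 main libraries. The 3 sertraline-treated TDEC libraries were not compared, and entered only the scaling over all 15 libraries and an alternative fit.

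Endothelial cells line blood vessels. They hold together through VE-cadherin and claudin junctions, keep blood fluid through thrombomodulin and nitric oxide, and are specified by ETS and SOXF transcription factors. Vascular endothelial growth factor (VEGF) acts on them through the receptor tyrosine kinases VEGFR1, VEGFR2 and VEGFR3, and the angiopoietins act through TIE2, the product of Tek. In the brain these vessels also form the blood-brain barrier, made of tight junctions, export pumps and selective transporters. Glioma stem like cells in contrast carry neural progenitor factors such as SOX2 and OLIG2, and they have been described as a source of vessel-like cells in tumors.

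Levels are normalised read counts (CPM, counts relative to library size, scaled by the trimmed mean of M values over the 6 libraries), and a log2 fold change is TDEC day 2 over MBMEC. Calls come from edgeR's quasi-likelihood test and need both more than a 2-fold difference and a Benjamini-Hochberg adjusted p below 0.05, with the adjustment made over all genes tested. TDEC day 2 had 3900 higher genes (24.5% of 15912) and 3058 lower ones (19.2%), and the 3 values of each group did not overlap for 81.1% of the genes, so a call or a lack of overlap was common for any gene. The list counts below are to be read against these shares, and a count near them does not set a list apart. Past an 8-fold difference, 2042 genes were higher and 1100 were lower. An exact permutation test of 3 libraries against 3 cannot go below p = 0.1.

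The TDEC day 2 libraries held 12049384 to 13642496 counts and the MBMEC libraries 15617686 to 17093061. At least 1 count was found for 20247 to 20748 genes in TDEC day 2 and for 19051 to 19414 genes in MBMEC. The first principal component of the 6 libraries carried 97.8% of the variance and the second 1.1%. TDEC day 2 replicate 3 stood apart from its group, as its counts differed from those of the other replicates by a mean chi-square of 10.4 and 10.9 a gene, against 2.46 between replicates 1 and 2 and 2.69 to 4.67 among MBMECs. Without it, 16392 genes passed the filter on low counts, against 15912, and 4189 were higher and 3233 lower. These held 3842 of the 3900 higher and 2953 of the 3058 lower genes of the main comparison. Replicate 3 held lower Vegfa, Fos and Aqp4 and higher Kdr, as given with these genes.

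The labels of both groups name endothelial cells, and the defining markers divided them. The summed level of 10 endothelial markers was 8.184 to 14.5 CPM in TDEC day 2 and 6999 to 7166 CPM in MBMEC, and all 10 were lower in TDEC day 2, with Tie1 and Cldn5 at 0 counts there. The 6 neural and glioma stem cell markers summed to 1701 to 2037 CPM in TDEC day 2 and to 244.9 to 247.2 CPM in MBMEC, where Sox2, Olig2 and Fabp7 were at 0. For 5 astrocyte markers the sums were 944.7 to 954.6 CPM in TDEC day 2 against 0.131 to 0.4722 CPM in MBMEC, with Aqp4, Slc1a2 and Slc1a3 at 0 in MBMEC. The defining markers of endothelial cells were thus at or near 0 in the TDEC day 2 libraries, which are called TDECs here by their label. In bulk libraries, fewer cells of a type and less RNA per cell cannot be told apart. Markers of other cells that a brain preparation can hold were low in both groups: 6 pericyte and smooth muscle markers summed to 2.011 to 5.366 CPM in TDEC day 2 and 2.9 to 4.257 CPM in MBMEC, and 4 fibroblast markers to 11.93 to 15.18 and 12.35 to 13.46 CPM. The 5 microglia and macrophage markers summed to 13.54 to 15.33 CPM in TDEC day 2 and 100 to 114.7 CPM in MBMEC, nearly all of it from the lysosomal gene Cd68, while the leukocyte gene Ptprc had 3 counts in TDEC day 2 and 1 in MBMEC.

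**Figure D1:**
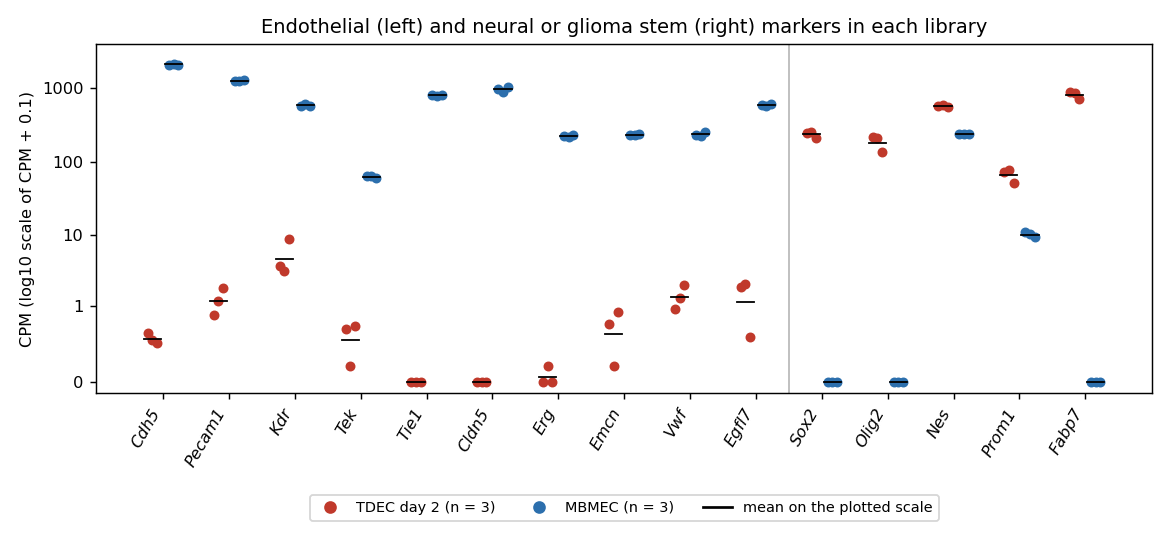
Normalised read counts (CPM, log10 scale of CPM + 0.1) of 10 endothelial and 5 neural or glioma stem cell markers in each library, 1 point per library, red for TDEC day 2 and blue for MBMEC, with the mean on the plotted scale as a bar. Endothelial markers lie below 10 CPM in TDEC day 2 and above 50 CPM in MBMEC, and the neural markers show the opposite order.

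Junction and surface genes of endothelium were lower in TDEC day 2 with few exceptions. Of 35 listed genes, 32 passed the filter on low counts, 28 were lower, 1 was higher and 3 were not called, with a median log2 fold change of -8.72 (-8.65 with genes at 0 set to their bound) against 0.06 over all genes tested. Cdh5, which encodes VE-cadherin, had 0.367, 0.277 and 0.240 CPM in TDEC day 2 against 2080, 2149 and 2070 CPM in MBMEC. Its log2 fold change was -12.75 (SE 0.274, adjusted p = 8.941e-15, edgeR). Pecam1, the adhesion molecule CD31, had 0.734, 1.18 and 1.84 CPM in TDEC day 2 against 1245, 1266 and 1291 CPM in MBMEC (log2 fold change -9.99, SE 0.211, adjusted p = 7.779e-14, edgeR). Every MBMEC library lay far above every TDEC day 2 library for both genes. Cd34, a sialomucin of vessels and of blood progenitors, had 0.294, 0.694 and 1.20 CPM in TDEC day 2 against 1445, 1518 and 1460 CPM in MBMEC, a log2 fold change of -10.99 (SE 0.287). Cldn5, the main claudin of brain endothelial tight junctions, had no count in the 3 TDEC day 2 libraries against 984.5, 887.4 and 1025 CPM in MBMEC, which made it at least 13040-fold lower.

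Some surface genes kept a readable level. The C-type lectin-like receptor gene Cd93 was at 94.5, 93.6 and 83.5 CPM in TDEC day 2 against 570, 544 and 537 CPM in MBMEC (log2 fold change -2.60, SE 0.067, adjusted p = 6.503e-12, edgeR), and the fenestral diaphragm gene Plvap at 32.9, 30.1 and 38.5 CPM against 370, 390 and 397 CPM. Both were lower without overlap, by far less than Cdh5. Not called were 3 genes of the list: Vcam1, an adhesion molecule for leukocytes, at 40.5 ± 13.6 CPM in TDEC day 2 and 67.7 ± 4.39 CPM in MBMEC, Jam2, a junctional adhesion molecule, at 139 ± 2.89 and 196 ± 19.5 CPM, and Rhoj, a small GTPase of endothelium, at 80.4 ± 6.39 and 99.7 ± 3.27 CPM (SD, n = 3 each). Vcam1 was at 32.5, 32.9 and 56.2 CPM in the 3 TDEC day 2 libraries, and it was called lower when replicate 3 was left out. Esm1, a proteoglycan of sprouting tip cells, was the only member called higher, at 2.42, 2.63 and 1.68 CPM in TDEC day 2 against 0.494, 0.393 and 0.405 CPM in MBMEC, low values in both groups.

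Endothelial transcription factors were mostly lower in TDEC day 2. Of 26 listed, 23 were tested, 20 were lower, 2 were higher and 1 was not called, with a median log2 fold change of -4.47. The SOXF factor Sox17 had no count in TDEC day 2 and 179.7, 162.5 and 185.7 CPM in MBMEC, at least 2377-fold lower. For Erg, the ETS factor that maintains endothelial identity, 1 count stood against 10334, a ratio of 9047 (95% counting interval 1623 to 357400). Fli1, a related ETS factor, was at 3.23, 2.22 and 3.36 CPM in TDEC day 2 against 209.9, 199.6 and 185 CPM in MBMEC, and Ets1 at 31.6, 33.8 and 44.5 CPM against 188, 184 and 177 CPM. The flow-responsive factors Klf2 and Klf4 had log2 fold changes of -5.65 and -5.79 (SE 0.119 and 0.234). Mef2c was the factor nearest to MBMEC, at 64.4 ± 6.37 CPM in TDEC day 2 and 94.6 ± 3.82 CPM in MBMEC, and it was not called.

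The pair of factors that were higher in TDEC day 2 also act outside blood vessels. Hey1, a repressor downstream of Notch, had 57.0, 60.2 and 34.2 CPM in TDEC day 2 against 0.0617, 0 and 0.135 CPM in MBMEC, where 3 counts were found in all (ratio 788.9, 95% counting interval 269.6 to 3829). Prox1, which specifies lymphatic endothelium and is also a factor of neural progenitors, had 48.4, 48.3 and 38.4 CPM in TDEC day 2 and no count in MBMEC, at least 698.7-fold higher. All 3 TDEC day 2 libraries stood above all MBMEC libraries for both.

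Genes of blood fluidity and vessel tone were lower as a group, with 18 of 22 tested genes lower and 2 higher (23 listed, median log2 fold change -5.03). Nos3, the endothelial nitric oxide synthase, had 0.514, 0.832 and 0.160 CPM in TDEC day 2 against 2058, 2092 and 2044 CPM in MBMEC (log2 fold change -11.94, SE 0.313, adjusted p = 5.947e-14, edgeR). Thbd, thrombomodulin, was lower by a log2 fold change of -10.74, Procr, the protein C receptor, by -9.46, and Vwf, the platelet-binding factor stored by endothelium, by -7.40. Higher were the genes of the clot-dissolving tissue plasminogen activator and of tissue factor, the starter of clotting. Plat was at 194, 184 and 185 CPM in TDEC day 2 against 21.6, 20.2 and 19.8 CPM in MBMEC (log2 fold change 3.19, SE 0.070, adjusted p = 1.464e-12, edgeR), and F3 at 41.1, 45.4 and 36.3 CPM against 0.926, 1.18 and 0.809 CPM (log2 fold change 5.38, SE 0.218). Neither gene overlapped between the groups.

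**Figure D2:**
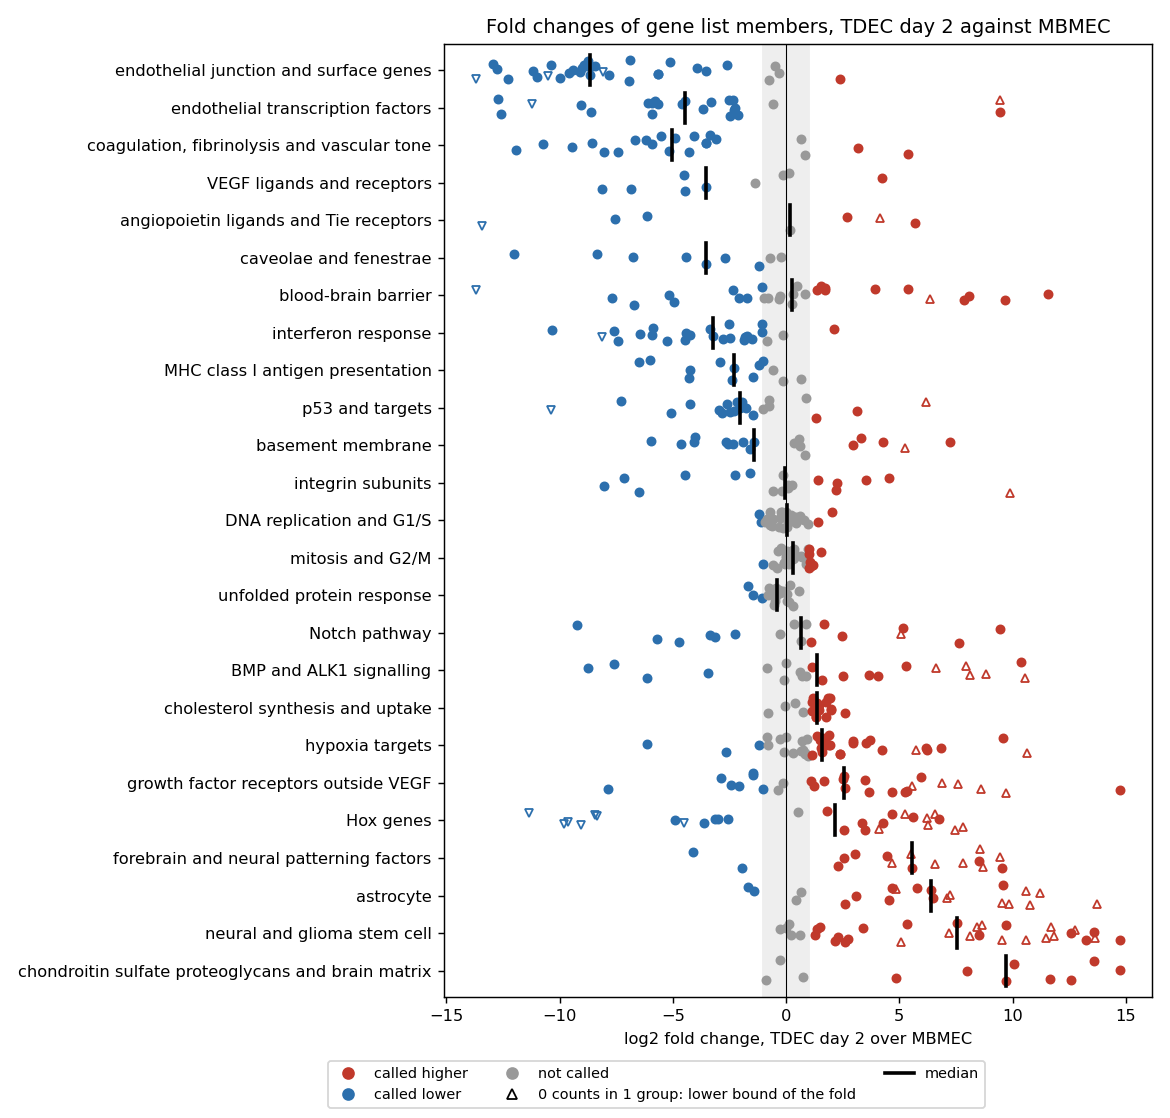
Log2 fold changes of TDEC day 2 over MBMEC for the members of 25 gene lists, 1 point per tested gene, with the list median as a black bar (genes at 0 set to their bound) and open triangles for the lower bound of genes with 0 counts in 1 group. Endothelial junction, transcription factor, coagulation, VEGF and caveolae lists lie mostly left of 0, and neural and matrix proteoglycan lists mostly right of it. Angiopoietin and blood-brain barrier genes lie on both sides, and replication, mitosis and unfolded protein response lists lie around 0.

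Of 10 listed VEGF ligands and receptors, 9 were tested, 5 were lower, 1 was higher and 3 were not called. The ligand gene Vegfa had 539.5, 539.7 and 298.9 CPM in TDEC day 2 against 24.3, 25.1 and 24.9 CPM in MBMEC. It rose by a log2 fold change of 4.21 (SE 0.188, adjusted p = 1.328e-09, edgeR), and its lowest TDEC day 2 library, replicate 3, was still above every MBMEC library (4.46 without that replicate). The gene of the main signalling receptor VEGFR2, Kdr, had 3.74, 3.12 and 8.81 CPM in TDEC day 2 against 575.8, 604.4 and 576.7 CPM in MBMEC (log2 fold change -6.83, SE 0.239, adjusted p = 4.106e-11, edgeR), and here replicate 3 was the highest of the TDEC libraries (-7.41 without it). Flt1, which encodes VEGFR1, a high-affinity receptor that also binds VEGF away from VEGFR2, was at 15.8, 13.2 and 14.5 CPM in TDEC day 2 against 171.4, 166.9 and 165.9 CPM in MBMEC (log2 fold change -3.54, SE 0.081, adjusted p = 1.866e-12, edgeR). Flt4, the receptor of lymphatic growth factors, was lower by a log2 fold change of -8.14, the co-receptor Nrp2 by -4.49, and the VEGFR1 ligand Pgf by -4.47. The co-receptor Nrp1 had 41.9, 47.9 and 49.5 CPM in TDEC day 2 and 45.6, 55.5 and 52.5 CPM in MBMEC. These ranges overlapped and the gene was not called (log2 fold change -0.14, SE 0.095, adjusted p = 0.1943, edgeR), and neither were the ligands Vegfb and Vegfd. Vegfc, with 3 counts in TDEC day 2 and 20 in MBMEC, did not pass the filter.

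Of 8 listed angiopoietin and Tie genes, 7 were tested, 3 were higher and 3 lower. Tek had 0.441, 0.0693 and 0.481 CPM in TDEC day 2 against 63.3, 63.4 and 59.2 CPM in MBMEC (log2 fold change -7.55, SE 0.412, adjusted p = 8.956e-12, edgeR). Tie1, the orphan partner of TIE2, had no count in TDEC day 2 against 818.7, 784.9 and 811.2 CPM in MBMEC, at least 10880-fold lower. Both receptor genes were at or near 0 in all 3 TDEC day 2 libraries. Angpt2, the context-dependent TIE2 ligand that destabilises vessels, was at 49.2, 50.3 and 54.9 CPM in TDEC day 2 against 7.35, 8.25 and 8.16 CPM in MBMEC, a rise of 2.70 on the log2 scale (SE 0.101, adjusted p = 1.153e-10, edgeR). The TIE2 agonist gene Angpt1 was at 1.10, 1.11 and 1.20 CPM in TDEC day 2 with no count in MBMEC, at least 17.51-fold higher from a low level. Of the angiopoietin-like genes, Angptl2 was higher (log2 fold change 5.69), Angptl4, which inhibits lipoprotein lipase, was lower with 3 counts against 266 (ratio 77.62, 95% counting interval 26.28 to 378.8), and Angptl6 was not called.

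**Figure D3:**
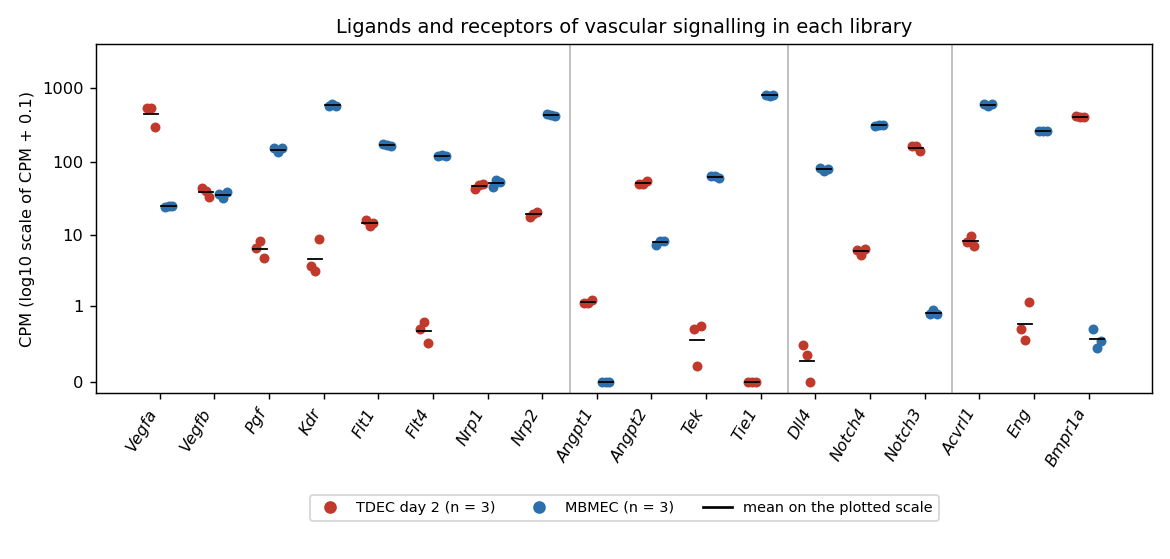
Normalised read counts (CPM, log10 scale of CPM + 0.1) of ligands and receptors of the VEGF, angiopoietin, Notch and BMP pathways in each TDEC day 2 (red) and MBMEC (blue) library, with the mean on the plotted scale as a bar. Vegfa, Angpt1 and Angpt2 are higher in TDEC day 2, Kdr, Flt1, Flt4, Tek and Tie1 are lower, and Nrp1 overlaps between the groups.

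The stretch of 120 bases before the Tie1 start site is printed because Tie1, a receptor of the angiopoietin list, had no count in TDEC day 2. It was read from the RefSeq promoter table (build GRCm38.p6, chr4:118489850-118489969, minus strand), in lower case with matches to GGAAG, the core bound by ETS factors, or to its reverse complement CTTCC in capitals.
Tie1: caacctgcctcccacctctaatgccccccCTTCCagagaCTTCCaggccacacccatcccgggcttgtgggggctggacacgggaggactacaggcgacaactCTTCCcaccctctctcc
The letters occur 3 times in this stretch and 7 times in the window of 250 bases before to 50 bases after the start. GGAAG on either strand is present in 73.9% of 27025 gene promoters of that length and in 78.6% of the promoters of tested genes with a window, against 11 of 15 endothelial transcription factors (73.3%), 7 of 10 VEGF genes (70%) and 4 of 5 angiopoietin genes (80%) that had one. The lists did not stand out from all promoters in this count.

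Notch, BMP and growth factor genes moved in both directions. Among 17 tested Notch genes of 19 listed, 7 were higher and 6 lower. The tip cell ligand Dll4 was at 0.220, 0.139 and 0 CPM in TDEC day 2 against 82.9, 74.9 and 80.6 CPM in MBMEC, and the endothelial receptor Notch4 was lower by a log2 fold change of -5.71. Notch3, a receptor of mural cells and neural progenitors, had 165, 161.7 and 138.3 CPM in TDEC day 2 against 0.741, 0.851 and 0.742 CPM in MBMEC (log2 fold change 7.62, SE 0.220). Notch1 and the ligand Jag1 were not called, at log2 fold changes of -0.26 and 0.37. In the BMP list, 12 of 22 tested genes (27 listed) were higher and 4 were lower. The receptor genes ran in opposite directions: Bmpr1a was at 418, 410.8 and 399.8 CPM in TDEC day 2 against 0.432, 0.197 and 0.270 CPM in MBMEC (log2 fold change 10.36, SE 0.296, adjusted p = 5.947e-14, edgeR), and Acvrl1, the endothelial receptor ALK1, was at 8.0, 9.64 and 7.13 CPM against 599, 569 and 607 CPM (log2 fold change -6.16, SE 0.099). The BMP ligand Bmp4 was lower (log2 fold change -7.62) and Bmp7 at least 448.1-fold higher. The target genes Id2 and Id3 were higher by 2.53 and 3.65 on the log2 scale, and Id1 was not called at 0.68.

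Among 24 tested growth factor ligands outside VEGF (29 listed), 8 were higher and 10 lower. Cxcl12, the chemokine that holds stem cells near vessels, was at 0.808, 0 and 0.481 CPM in TDEC day 2 against 909.2, 929.8 and 911 CPM in MBMEC (log2 fold change -11.06, SE 0.476). Its receptors ran apart, with Ackr3 lower by a log2 fold change of -7.87 and Cxcr4 at 8.88, 7.77 and 6.25 CPM in TDEC day 2 and 0 counts in MBMEC, at least 118.4-fold higher. Ptn, the heparin-binding ligand pleiotrophin, had 967, 949.6 and 932 CPM in TDEC day 2 and no count in MBMEC, at least 14660-fold higher. The gene of its receptor, Ptprz1, had 890.4, 916 and 704 CPM in TDEC day 2 and 1 count in MBMEC (ratio 38980, 95% counting interval 6996 to 1540000). Growth factor receptors were mostly higher, 18 of 27 tested (30 listed) against 7 lower, with a median log2 fold change of 2.56. The collagen receptor Ddr2 (5.25), the stem cell factor receptor Kit (3.68) and the EGF receptor Egfr (2.59) were among those higher on the log2 scale, and the hepatocyte growth factor receptor Met (-2.85) and the TGF-beta receptor Tgfbr2 (-2.45) among those lower.

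The basement membrane list held 10 lower and 5 higher genes of 19 tested (25 listed). Lama4, the laminin chain of vessel walls, was at 203.9, 197.7 and 254.7 CPM in TDEC day 2 against 26.9, 30.2 and 27.5 CPM in MBMEC, a log2 fold change of 2.96 (SE 0.101, adjusted p = 7.919e-11, edgeR). The groups were well apart, with replicate 3 highest among the TDECs. The main type IV collagen chains of basement membrane went the other way: Col4a1 was at 138, 137 and 139 CPM in TDEC day 2 against 2227, 2454 and 2285 CPM in MBMEC (log2 fold change -4.07, SE 0.059), and Col4a2 was lower by a log2 fold change of -4.66. The alternative chain Col4a5 was higher (4.3), as was nidogen gene Nid2 (7.22), while its paralog Nid1 was lower (-5.96). Fibronectin, Fn1, was lower (-2.56). The laminin partner chains Lamc1 and Lamb1, which can pair with the alpha 4 chain, were not called, at 559 ± 169 CPM in TDEC day 2 against 433 ± 16.6 CPM in MBMEC for Lamc1 and 275 ± 73.1 against 179 ± 9.17 CPM for Lamb1 (SD, n = 3 each).

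Integrins, which bind these matrices, were evenly split, with 6 higher, 6 lower and 6 not called of 18 tested (21 listed). That is 33.3% in each direction, against 24.5% higher and 19.2% lower over all genes tested. Itgb1, the common beta chain, overlapped at 1469, 1455 and 1685 CPM in TDEC day 2 and 1464, 1483 and 1418 CPM in MBMEC (log2 fold change 0.08, SE 0.066). Itgb3, the beta chain of the angiogenic vitronectin receptor, was at 2.79, 2.22 and 2.24 CPM in TDEC day 2 against 344, 336 and 343 CPM in MBMEC, while its alpha partner Itgav rose by 2.23 on the log2 scale. Itgb8, a beta chain of neural progenitors and astrocytes that pairs with the same alpha chain, had 67.2, 63.1 and 55.7 CPM in TDEC day 2 and no count in MBMEC, at least 959.9-fold higher. The chondroitin sulfate proteoglycans of brain matrix were higher in 8 of 11 tested genes (16 listed) and lower in none, with a median log2 fold change of 9.70. Cspg5 had 459, 479 and 404 CPM in TDEC day 2 against 0.0617, 0.131 and 0.202 CPM in MBMEC, and the versican gene Vcan was higher by a log2 fold change of 7.98. Ncan, neurocan, had 26102 counts against 2 (ratio 14910, 95% counting interval 4126 to 123100). Tenascin C, Tnc, was not called at 323 ± 60.04 CPM in TDEC day 2 and 602 ± 39.98 CPM in MBMEC, and was lower without replicate 3.

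Blood-brain barrier genes did not share a direction: of 28 tested (38 listed), 11 were higher, 9 lower and 8 not called. The tight junction genes Cldn5, Ocln (log2 fold change -4.97) and Cgnl1 (-6.72) were lower, and the scaffold Tjp1 was at 224 ± 12.3 CPM in TDEC day 2 and 438 ± 30.7 CPM in MBMEC without a call. The glucose carrier gene Slc2a1 was at 70.9, 72.5 and 57.4 CPM in TDEC day 2 against 116.3, 123.1 and 113.9 CPM in MBMEC (log2 fold change -0.81, SE 0.088), below the 2-fold limit although the groups did not overlap. The amino acid carrier Slc7a5 (1.70), the monocarboxylate carrier Slc16a1 (1.73) and the efflux pump Abcg2 (1.38) were higher on the log2 scale. Several genes that define barrier endothelium in the brain were at or near 0 in the MBMEC libraries themselves. The efflux pump Abcb1a had 0.0734, 0 and 0 CPM in TDEC day 2 and 1.42, 0.720 and 1.42 CPM in MBMEC (ratio 48.15, 95% counting interval 8.289 to 1936). Slco1c1 had 3 counts in TDEC day 2 and 0 in MBMEC, Slco1a4 1 and 0, and Slc22a8 none in either. The lipid transporter Mfsd2a was at 22.7, 18.7 and 35.4 CPM in TDEC day 2 against 0.123, 0.131 and 0 CPM in MBMEC, and Lef1, the effector of barrier-inducing Wnt signals, was at 5.43, 5.13 and 5.21 CPM in TDEC day 2 with no count in MBMEC (at least 81.1-fold higher). On these genes MBMEC gives a low reference level.

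None of the 10 genes of caveolae, the membrane pits of endothelium, and fenestrae was higher. Of 9 tested, 7 were lower and the coat genes Pacsin2 and Pacsin3 were not called. Cav1, the caveolin that forms the pits, was at 2.5, 3.12 and 4.33 CPM in TDEC day 2 against 1082, 1071 and 1045 CPM in MBMEC (log2 fold change -8.34, SE 0.141, adjusted p = 9.251e-14, edgeR). The cavin genes differed in size, at log2 fold changes of -6.75 for Ptrf (cavin 1) and -2.71 for Sdpr (cavin 2), and with 2 counts against 11184 for Prkcdbp (cavin 3, ratio 4896, 95% counting interval 1355 to 40430).

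Neural genes were mostly higher in TDEC day 2. Of 33 tested neural and glioma stem cell genes (34 listed), 28 were higher and none lower, with a median log2 fold change of 8.50 (7.53 with genes at 0 set to their bound). Sox2 had 245.6, 254.7 and 213.1 CPM in TDEC day 2, Olig2 213.6, 207.4 and 134.7 CPM, and Fabp7, the brain fatty acid binding protein of radial glia, 887.2, 854.2 and 711.8 CPM, all with no count in MBMEC. These were at least 3685-fold, 2886-fold and 12670-fold higher, with replicate 3 lowest for each. Nestin, Nes, an intermediate filament of progenitors that cultured endothelium also makes, was at 564.4, 581.9 and 551.9 CPM in TDEC day 2 against 236.2, 237.1 and 235.6 CPM in MBMEC (log2 fold change 1.26, SE 0.056). Of the astrocyte list 17 of 21 tested genes were higher and 2 lower (22 listed). Slc1a3, the glial glutamate carrier, had 856.4, 850.1 and 900.3 CPM in TDEC day 2 and no count in MBMEC, at least 13390-fold higher. Gfap, the astrocyte filament, had 23.4, 20.7 and 10.6 CPM in TDEC day 2 against 0.185, 0.0655 and 0.337 CPM in MBMEC, and Aqp4, the astrocyte water channel, 12.3, 11.6 and 2.16 CPM against 0 (at least 137.8-fold). For both genes replicate 3 was the lowest of the TDEC libraries. Neuronal genes were higher in 18 of 22 tested and lower in 3 (31 listed). Map2, the dendritic microtubule protein, was at 598, 599 and 547 CPM in TDEC day 2 with no count in MBMEC (at least 8993-fold higher), whereas Gad2, the GABA-making enzyme, was lower, with 2 counts against 2893 (ratio 1266, 95% counting interval 350.2 to 10460).

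Hox genes, which mark position along the body axis, differed by cluster. Of 39 listed, 28 were tested, 15 higher and 12 lower. All 7 tested members of the Hoxb cluster had no count in TDEC day 2. Hoxb8 was at 199.7, 178.6 and 199.8 CPM in MBMEC, which made it at least 2604-fold lower in TDEC day 2. The Hoxa and Hoxc clusters were higher wherever called, as for Hoxa5, at 32.5, 35.3 and 30.6 CPM in TDEC day 2 against 3.27, 3.27 and 3.04 CPM in MBMEC (log2 fold change 3.36, SE 0.132), Hoxa10 (6.75) and Hoxc4 (at least 227.3-fold). The Hoxd cluster was divided, with Hoxd8 at 22.9, 21.4 and 22.8 CPM in TDEC day 2 against 198, 187 and 204 CPM in MBMEC and Hoxd13 at 11.8, 11.1 and 11.8 CPM in TDEC day 2 with no count in MBMEC (at least 178.6-fold higher). Transcripts within a Hox cluster overlap each other and antisense genes, and the strand setting of the counting was not given, so that single members are less certain than the cluster. Of 16 tested forebrain and neural patterning factors (24 listed), 14 were higher and 2 lower. Emx2, a forebrain factor, had 598 counts in TDEC day 2 against 0 in MBMEC, at least 227.7-fold higher.

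**Figure D4:**
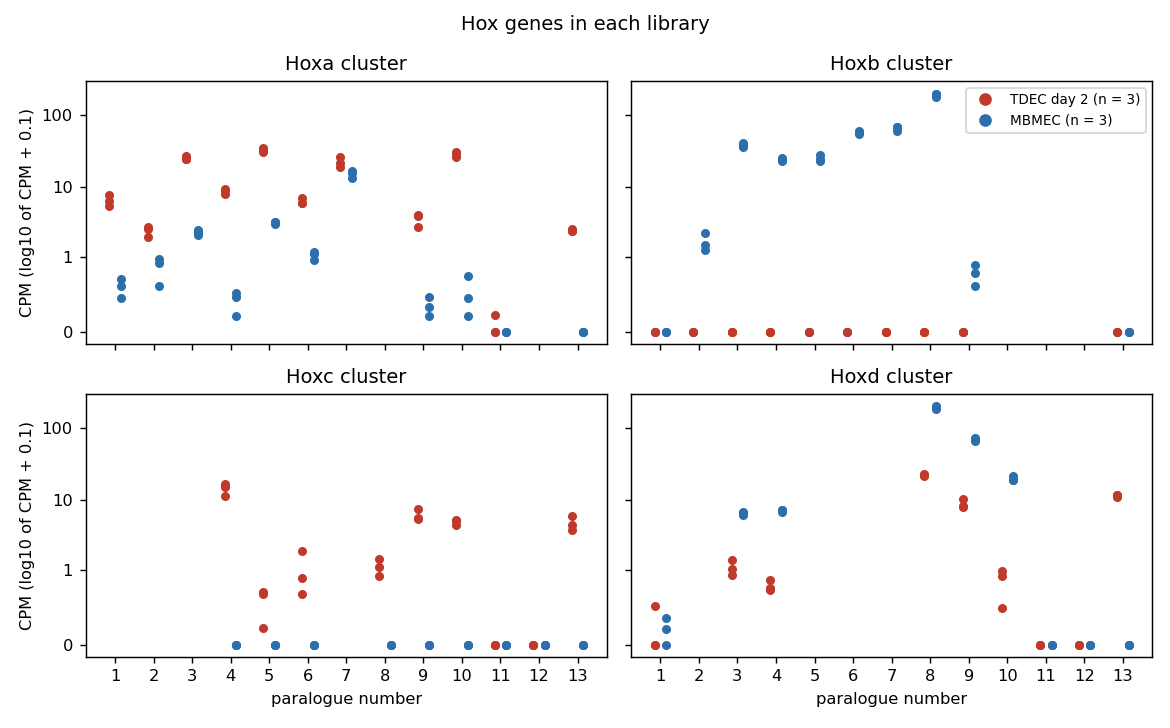
Normalised read counts (CPM, log10 of CPM + 0.1) of the Hox genes by paralogue number, 1 panel per cluster, with 1 point per library, red for TDEC day 2 and blue for MBMEC. The Hoxb genes are at 0 in TDEC day 2, and the called Hoxa and Hoxc genes lie higher in TDEC day 2.

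Cell cycle genes were close between the groups. Mki67, the marker of cycling cells, was at 355.9, 363.5 and 387.9 CPM in TDEC day 2 and 375.5, 397.9 and 328.7 CPM in MBMEC, overlapping, with a log2 fold change of 0.01 (SE 0.076, adjusted p = 0.9383, edgeR). Of 30 replication and G1/S genes, all tested, 2 were higher and 2 lower (median log2 fold change 0.02), and of 30 mitosis and G2/M genes 7 were higher and 1 lower (median 0.32). The helicase subunit gene Mcm2 overlapped at 209, 214 and 235 CPM in TDEC day 2 and 212, 226 and 212 CPM in MBMEC. In the replication list the log2 fold changes ran from -1.18 for the thymidylate synthase gene Tyms to 2.04 for the transcription factor gene E2f2. In the mitosis list they ran from -1.01 for the anaphase activator Cdc20 to 1.53 for the spindle gene Nusap1, with most calls just past the 2-fold limit, such as the cyclins Ccnb1 (1.03) and Ccna2 (1.02). The 7 higher mitosis genes became 2 in a test against a 2-fold null, 5 without TDEC day 2 replicate 3, where Ccna2 and the spindle gene Hmmr lost their calls, 4 without MBMEC replicate 1 and 10 under plain library totals. The call of Cdc20 was lost under every other scaling, under the 2-fold null and with DESeq2. It was also lost at a minimum count of 50, with all 15 libraries in the fit, and without TDEC day 2 replicate 1 or replicate 2. The G1 regulators differed far more. Ccnd2, cyclin D2, was at 2754, 2831 and 2835 CPM in TDEC day 2 against 91.9, 81.0 and 88.1 CPM in MBMEC (log2 fold change 5.01, SE 0.062, adjusted p = 7.779e-14, edgeR), while cyclin D1, Ccnd1, was not called at -0.75. The kinase gene Cdk6 was lower (-2.29). Of the inhibitors, Cdkn1a, the p21 gene, was at 29.9, 25.8 and 17.5 CPM in TDEC day 2 against 466.4, 434.3 and 475 CPM in MBMEC (log2 fold change -4.22, SE 0.135, adjusted p = 5.402e-11, edgeR), and Cdkn2a and Cdkn1b were higher (3.15 and 1.72).

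Genes of the p53 pathway were lower alongside Cdkn1a, 14 of 21 tested (22 listed), with 3 higher. Trp53 itself was at 39.8, 38.1 and 32.5 CPM in TDEC day 2 against 201.6, 208.5 and 201.6 CPM in MBMEC (log2 fold change -2.47, SE 0.079). Its targets Mdm2 (-2.17), which feeds back on p53, Ccng1 (-2.96) and Phlda3 (-5.07) were lower on the log2 scale, and the death receptor gene Eda2r had no count in TDEC day 2 against 97.7, 103 and 96.2 CPM in MBMEC (at least 1339-fold lower). Sesn1 was an exception, higher at 3.12. The median of the list was -2.04.

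**Figure D5:**
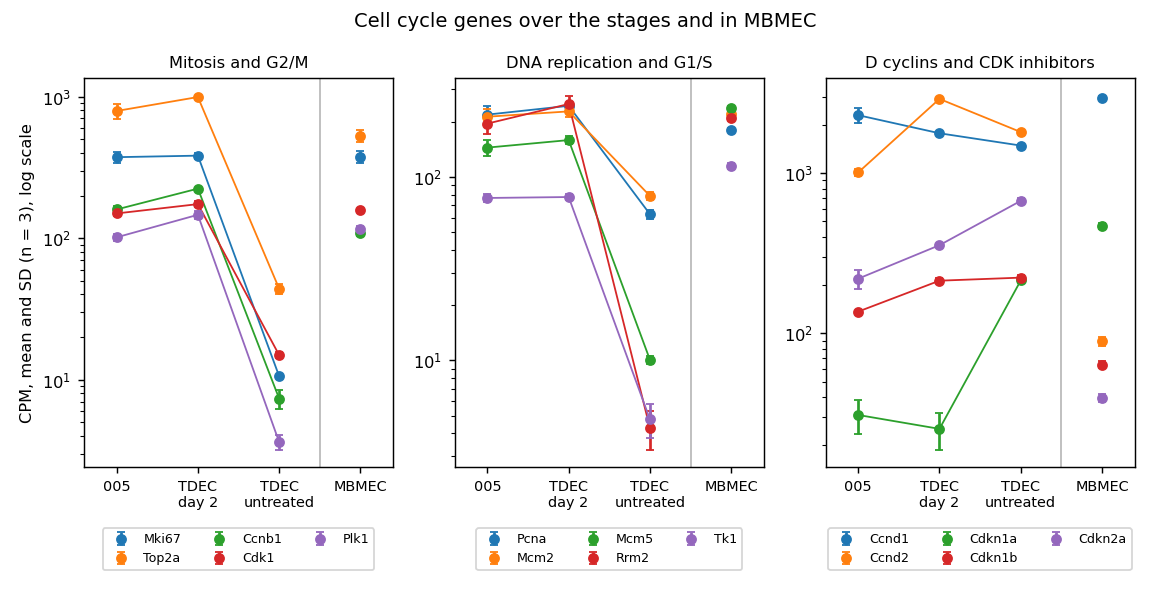
Mean normalised read counts (CPM, log scale, scaled over all 15 libraries) with SD over 3 libraries for cell cycle genes in 005, TDEC day 2, untreated TDEC and MBMEC. Mitosis and replication genes of TDEC day 2 lie near those of 005 and MBMEC and fall in untreated TDEC, whereas Ccnd2 and Cdkn1a separate TDEC day 2 from MBMEC.

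Oxygen-responsive genes were mostly higher in TDEC day 2, the only one of the pair of cultures labelled with 1% oxygen. Of 41 tested hypoxia targets (43 listed), 25 were higher, 3 lower and 13 not called, with a median log2 fold change of 1.57. Hk2, the inducible hexokinase, was at 151.5, 163.5 and 128.6 CPM in TDEC day 2 against 11.6, 12.6 and 10.2 CPM in MBMEC (log2 fold change 3.69, SE 0.111, adjusted p = 1.921e-11, edgeR), and the mitophagy gene Bnip3 at 241.7, 230.2 and 165.6 CPM against 19, 17.2 and 19 CPM (log2 fold change 3.53, SE 0.132). The neuronal-type glucose carrier Slc2a3 had 108, 117 and 85.9 CPM in TDEC day 2 and no count in MBMEC (at least 1609-fold higher), and the brain isoform genes Aldoc and Eno2 rose by 9.58 and 6.21 on the log2 scale. The general glycolytic genes were closer together. Ldha, lactate dehydrogenase A, was at 1635, 1667 and 1414 CPM in TDEC day 2 against 999.6, 938.4 and 1012 CPM in MBMEC (0.68), and Aldoa overlapped (-0.09). The lower members were Ndrg1 (-2.65), Angptl4 and the oxygen sensor Egln3 (-1.20). Among the sensing genes, Epas1, the HIF-2 alpha gene typical of endothelium, was at 50.3, 40.4 and 48.4 CPM in TDEC day 2 against 236.2, 209.4 and 235.8 CPM in MBMEC (log2 fold change -2.29, SE 0.088), Egln1 was higher (1.90) and Hif1a was not called (-0.64).

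Hypoxia-inducible factors bind the letters ACGTG. Stretches of 120 bases before the start are printed for a pair of called targets and a pair that were not called, from the RefSeq table (GRCm38.p6), with ACGTG or its reverse complement CACGT in capitals: Bnip3 at chr7:138909507-138909626 on the minus strand, Hk2 at chr6:82774455-82774574 on the minus strand, Ldha at chr7:46845684-46845803 on the plus strand and Slc2a1 at chr4:119108625-119108744 on the plus strand.
Bnip3: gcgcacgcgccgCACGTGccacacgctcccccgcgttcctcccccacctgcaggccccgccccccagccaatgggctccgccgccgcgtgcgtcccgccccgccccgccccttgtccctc
Hk2: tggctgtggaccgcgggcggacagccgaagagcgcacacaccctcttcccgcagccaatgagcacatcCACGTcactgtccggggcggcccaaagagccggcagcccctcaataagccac
Ldha: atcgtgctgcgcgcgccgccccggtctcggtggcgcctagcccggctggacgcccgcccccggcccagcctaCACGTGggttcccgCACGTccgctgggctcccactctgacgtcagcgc
Slc2a1: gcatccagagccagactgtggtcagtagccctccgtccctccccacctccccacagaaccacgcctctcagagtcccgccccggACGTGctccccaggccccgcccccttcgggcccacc
In Bnip3 and Ldha the run CACGTG holds the letters on both strands. All printed stretches were taken from targets that held the letters there. Over the full window, ACGTG on either strand was present in 23 of 35 hypoxia targets with a promoter entry (65.7%), against 21.8% of 27025 promoters and 28.9% of those of tested genes. The list was written as one of hypoxia targets, so a share above that of all promoters could be foreseen and is no result of these libraries. Within the targets ACGTG did not follow the call: of the 23 with it, 10 were higher, 1 lower, 11 not called and 1 not tested, and of the 12 without it, 10 were higher and 2 not called.

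Interferon and antigen presentation genes were lower in TDEC day 2. Of 25 tested interferon response genes (26 listed), 22 were lower, 2 were not called and Cxcl10, a T cell attracting chemokine at 2.57, 2.01 and 1.92 CPM in TDEC day 2 against 0.370, 0.262 and 0.877 CPM in MBMEC, was higher. Bst2, tetherin, which holds budding viruses at the membrane, was at 0.147, 0.347 and 0.320 CPM in TDEC day 2 against 353.3, 345.8 and 370.7 CPM in MBMEC (log2 fold change -10.31, SE 0.337, adjusted p = 5.947e-14, edgeR). Of 13 tested MHC class I genes (14 listed), 10 were lower. H2-D1 was at 6.39, 6.93 and 4.49 CPM in TDEC day 2 against 540.7, 504.8 and 584.4 CPM in MBMEC, although the near-identical class I genes may share reads, and B2m, the common light chain, was at 107 ± 8.33 CPM in TDEC day 2 and 245 ± 8.79 CPM in MBMEC (SD, n = 3 each, log2 fold change -1.20). Of the cytokines, Lif and Il33 were higher (7.54 and 4.57) and Ccl2, the monocyte attractant, was lower (-5.43).

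Immediate early genes and their feedback regulators were mixed, 14 higher and 10 lower of 32 tested (34 listed). Egr1 was at 367.9, 351 and 236.4 CPM in TDEC day 2 against 92.5, 97.7 and 103.9 CPM in MBMEC (log2 fold change 1.70, SE 0.134, adjusted p = 1.869e-07, edgeR). Fos was at 191, 182.8 and 90.3 CPM in TDEC day 2 against 15.9, 17.4 and 20.2 CPM in MBMEC (log2 fold change 3.12, SE 0.235, adjusted p = 1.312e-07, edgeR), with replicate 3 lowest among the TDEC libraries for both but above MBMEC. Without it, the log2 fold changes were 1.88 for Egr1 and 3.399 for Fos. Egr3, with 36 counts in TDEC day 2 and 18 in MBMEC, was too low to test. Spry1, a feedback inhibitor of growth factor signalling, was at 245, 243 and 209.9 CPM in TDEC day 2 against 1.67, 0.917 and 1.75 CPM in MBMEC, and its relatives Spry2 (4.43) and Spry4 (4.68) and the ETS factors Etv1 (7.80) and Etv5 (3.90) were also higher on the log2 scale. Fosl1, another member of the AP-1 family, was lower (-6.41), the phosphatase Dusp1 was lower (-2.74), and Dusp4 and Dusp6 at 0.99 lay just under the 2-fold limit.

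Of 20 tested cholesterol genes (21 listed), 16 were higher and none lower, with a median log2 fold change of 1.38. Cyp51, a sterol demethylase, was at 345, 346 and 498 CPM in TDEC day 2 against 69.2, 62.0 and 64.9 CPM in MBMEC (log2 fold change 2.60, SE 0.126), and the pathway regulator Srebf2 was higher by 1.44. None of 20 unfolded protein response genes was higher and 3 were lower, with the chaperone Hspa5 overlapping at 806, 775 and 1104 CPM in TDEC day 2 and 854, 894 and 892 CPM in MBMEC. None of 11 tested mitochondrially encoded genes was called. Among the IGF binding proteins, Igfbp2 was at 1568, 1509 and 1491 CPM in TDEC day 2 with no count in MBMEC, at least 23500-fold higher. Its fitted log2 fold change was the largest among genes with at least 10 CPM in a group, with predicted genes and clone names left out. Igfbp3 was not called, at 2162, 2133 and 3013 CPM in TDEC day 2 and 2122, 1862 and 2111 CPM in MBMEC. The imprinted adaptor gene Grb10 had 1 count in TDEC day 2 and 17712 in MBMEC (ratio 15510, 95% counting interval 2783 to 612500). The next largest rises by the fitted log2 fold change were those of Gpm6b, Ptn, Slc1a3, Fabp7, Map2, Trim9, Pou3f3, Fbn2 and Kif1a, all at 0 in MBMEC. The largest falls were those of Cldn5, Ctla2a, Tie1, Plac8, Adgrf5, Ly6a, Hcls1, Ly6c1, Inpp5d and Hoxb8, all at 0 in TDEC day 2. Folds of genes at 0 are known only as bounds, so their order against genes with a few counts is not settled. Ptprz1, with 1 count in MBMEC, had a ratio of 38980, and that of Grb10 was 15510.

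How far day 2 had moved from the starting cells was read from the same TDEC day 2 libraries against 005, and what followed from untreated TDECs against TDEC day 2. These comparisons share the TDEC day 2 libraries with the main one, and levels below are scaled over all 15 libraries. Replicate 3 of 005 also stood apart from its group (mean chi-square 10.6 and 10.3 a gene, against 2.09 between replicates 1 and 2). Set against 005, TDEC day 2 had 821 higher genes, or 5.35% of the 15344 that were tested, and 687 lower genes, or 4.48%, which became 742 and 801 under plain library totals. Untreated TDECs had 1726 of 15508 genes (11.1%) higher and 1450 (9.35%) lower than TDEC day 2. Of the endothelial junction and surface genes 15 were tested against 005, 4 were higher and 1 lower, and of the endothelial transcription factors 17 were tested, 1 was higher and 2 lower.

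Several vascular genes were higher in TDEC day 2 than in 005, at varying distances from MBMEC. Flt1 averaged 1.69 ± 0.317 CPM in 005, 15.01 ± 1.34 CPM in TDEC day 2, 41.6 ± 2.996 CPM in untreated TDECs and 172 ± 2.76 CPM in MBMEC, so that day 2 held 8.74% of the MBMEC level. It was higher in TDEC day 2 than in 005 (log2 fold change 3.12, SE 0.204, adjusted p = 7.41e-07, edgeR) and higher again in untreated TDECs than at day 2 (1.46). Nrp1 averaged 11.8 ± 3.39 CPM in 005, 48.1 ± 4.20 CPM in TDEC day 2, 23.7 ± 0.376 CPM in untreated TDECs and 52.3 ± 5.22 CPM in MBMEC. It rose against 005 (2.01, SE 0.176, adjusted p = 9.096e-06, edgeR) and was lower in untreated TDECs than at day 2 (-1.03). Kdr rose against 005 too (2.13, SE 0.456, adjusted p = 0.003095, edgeR) but held 0.905% of the MBMEC level. Its day 2 level was highest in replicate 3, which stood apart, and the rise against 005 was not refitted without that library. Vcam1 was at 5.32 ± 0.540 CPM in 005, 42.0 ± 14.2 CPM in TDEC day 2, 10.5 ± 1.99 CPM in untreated TDECs and 69.1 ± 4.51 CPM in MBMEC, higher against 005 (2.96) and lower in untreated TDECs than at day 2 (-2.02). The cavin gene Sdpr took the same course, at 7.20 ± 0.692, 87.0 ± 11.8, 34.1 ± 2.998 and 563 ± 27.9 CPM in this order, as did Cav1, which held 0.315% of the MBMEC level at day 2.

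Other vascular genes followed different courses. Pecam1 was at 1.38 ± 0.329 CPM in 005, 1.30 ± 0.580 CPM in TDEC day 2 and 0.740 ± 0.099 CPM in untreated TDECs, against 1295 ± 24.9 CPM in MBMEC, and it was not called between the TDEC stages. Angpt2, higher in TDEC day 2 than in MBMEC, was at 59.3 ± 14.1 CPM in 005, 53.4 ± 3.25 CPM in TDEC day 2 and 58.6 ± 3.68 CPM in untreated TDECs, with no call between these stages. Vegfa was at 239 ± 37.2 CPM in 005, 476 ± 144 CPM in TDEC day 2, 1878 ± 27.97 CPM in untreated TDECs and 25.3 ± 0.467 CPM in MBMEC, higher than MBMEC at every stage. It was called between day 2 and untreated TDECs (1.97) but not between 005 and day 2, where 0.98 lay just under the 2-fold limit. The day 2 level of Vegfa was lowest in replicate 3, which stood apart, and neither step was refitted without that library. Lama4 was called at both steps (1.95 and 1.87), at 58.0 ± 5.48, 227 ± 32.7 and 834 ± 32.6 CPM from 005 to untreated TDECs against 28.8 ± 1.84 CPM in MBMEC. Klf2 and Klf4 turned: they were lower in TDEC day 2 than in 005 (-1.35 and -1.41) and higher in untreated TDECs than at day 2 (3.18 and 5.17). Klf4 reached 41.2 ± 2.00 CPM in untreated TDECs, against 1.11 ± 0.473 CPM in TDEC day 2 and 61.6 ± 3.09 CPM in MBMEC.

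Of the hypoxia targets, a part was higher at each step. Against 005, 21 of 40 tested were higher in TDEC day 2 and none lower (median log2 fold change 1.09), and 15 of 41 were higher in untreated TDECs than in TDEC day 2, with none lower (median 0.62). Slc2a1, below MBMEC at day 2, was at 30.0 ± 2.37 CPM in 005, 69.4 ± 8.51 CPM in TDEC day 2, 240 ± 6.73 CPM in untreated TDECs and 120 ± 4.93 CPM in MBMEC. Mitosis and replication genes were lower at the later step. Mki67 averaged 373 ± 34.2 CPM in 005, 383 ± 17.9 CPM in TDEC day 2, 10.6 ± 0.198 CPM in untreated TDECs and 375 ± 36.0 CPM in MBMEC. No mitosis gene was called between 005 and day 2, while all 30 were lower in untreated TDECs than in TDEC day 2 (median log2 fold change -4.38), as were 27 of 30 replication genes. Cdkn1a went the other way, at 30.9 ± 7.40 CPM in 005, 25.3 ± 6.51 CPM in TDEC day 2, 214 ± 7.82 CPM in untreated TDECs and 469 ± 21.7 CPM in MBMEC (SD, n = 3 each). Of 33 neural stem cell genes tested between TDEC day 2 and 005, 4 were higher and 7 lower, and Sox2 was at 246 CPM in TDEC day 2 and 301 CPM in 005. No Hox gene was higher in TDEC day 2 than in 005 and 1 of 21 tested was lower.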

How the data were processed

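Poly(A)-selected RNA was sequenced with a directional kit. Per the submitters' processing notes, reads were demultiplexed with bcl2fastq 2.19, trimmed with Trimmomatic 0.38, aligned to mm10 with HISAT2 2.1.0 and counted per gene with featureCounts 1.6.3. Strand and multi-mapping settings are not given in the sources used here. The authors deposited 1 table of raw counts of 49585 genes in 15 libraries, and groups were taken from the labels. Here genes were kept by filterByExpr (minimum count 10), scaled by TMM and tested with glmQLFit and glmQLFTest of edgeR 4.0.16 (limma 3.58.1, R 4.3.3) on the 6 libraries alone, and DESeq2 1.42.0 was an alternative. A gene with 0 counts in a group was given a bound from a floor of 3 counts over the group, and ratios of 1 to 3 counts have exact 95% intervals that cover counting error only. As a check of the code, counts were simulated with equal means in both groups, a fixed spread and 50 genes changed at each of 4 fold sizes. Of these, 48 to 50 of 50 were recovered, with 1 false call. The real groups differed in far more genes and held a library that stood apart, so this gives no error rate for the comparison. Of the 1018 genes in 46 lists, names were drawn from up to 6 called members per direction by smallest p, up to 4 uncalled members with at least 10 CPM by smallest difference, every member of short lists, 10 fixed vascular genes, the defining markers and the 10 largest rises and falls. Named beyond this rule, after their values were seen, were Abcb1a, Abcg2, Bmp7, Cd93, Cxcr4, Dusp1, Dusp4, Dusp6, Egfr, Emx2, Eno2, Ets1, Kit, Klf4, Ldha, Lef1, Mfsd2a, Slc22a8, Slc7a5, Slco1a4, Slco1c1, Sox17 and Tjp1. Some single genes are not reported here. The comparison and lists were chosen with earlier results of these data known.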

Additional observations from a re-analysis of the deposited data

Results flagged for a closer look

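Of 10 vascular and early response genes looked up across the TDEC time points, 5 were called between untreated TDECs and TDEC day 2, so that their difference from MBMEC depended on the time point (edgeR's quasi-likelihood test, Benjamini-Hochberg adjusted over all genes tested, SD with n = 3 each). A gene that did not pass the filter on low counts could not be called, so the rest are not shown to be equal. Vegfa averaged 1878 ± 27.97 CPM in untreated TDECs and 476 ± 144 CPM in TDEC day 2, against 25.3 ± 0.467 CPM in MBMEC, a log2 fold change of 1.966 between the time points (SE 0.169, adjusted p = 2.471e-06). Lama4 differed by 1.866 (SE 0.086, adjusted p = 1.47e-08). Its level was 834 ± 32.6 CPM in untreated TDECs, 227 ± 32.7 CPM in TDEC day 2 and 28.8 ± 1.84 CPM in MBMEC.

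The early response gene Egr1 differed by 1.85 (SE 0.127, adjusted p = 3.742e-07), at 1201 ± 39.3 CPM in untreated TDECs, 330 ± 73.7 CPM in TDEC day 2 and 100.2 ± 5.93 CPM in MBMEC. For Fos the difference was 2.168 (SE 0.202, adjusted p = 4.85e-06), at 728 ± 17.2, 160 ± 57.7 and 18.2 ± 2.22 CPM in the same order. Egr3, too low to test between TDEC day 2 and MBMEC, differed by 4.602 (SE 0.328, adjusted p = 8.738e-08), at 22.7 ± 2.76 CPM in untreated TDECs, 0.895 ± 0.523 CPM in TDEC day 2 and 0.393 ± 0.154 CPM in MBMEC. All 3 untreated TDEC libraries stood above all 3 TDEC day 2 libraries for these genes. A lack of overlap was common, as 68.9% of the 15508 genes tested between these groups showed it.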

How the results depend on the processing

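Against MBMEC, no call among the 507 genes eligible to be named changed sign in the alternative fits that held the gene. The called ones were largely chosen by smallest p in these libraries, so a change of sign was unlikely from the start. Genes not called in the main fit are among the 507 and had no call to change. At a minimum count of 50, 479 of the 507 genes were fitted, and 506 without MBMEC replicate 1 or without MBMEC replicate 3. The counts of 3900 higher and 3058 lower genes stayed within 1.5 times. Single genes were not refitted for the other comparisons. DESeq2 gave 3904 and 3000, plain library totals 4287 and 2729, no filter on low counts gave 5062 and 3677, 2876 and 2434 were called at a minimum count of 50, and 3350 and 2533 in a test against a 2-fold null. Plain totals moved the median log2 of all genes to 0.205, from 0.06, and the share of higher calls to 61.1% from 56.1%. Among the eligible genes, that scaling lost 5 calls, of Pdgfrb, E2f8, Cdc20, Spp1 and Ern1, and gained 4, among them Rfng, Vhl and Cdkn2b. A further 104, called in neither fit, moved by more than their SE. The median of the replication list, 0.02, lay between -0.021 (without TDEC day 2 replicate 3) and 0.164 (plain totals). The replicate numbers tied no samples together, with correlations of deviations from -0.009 to 0.002 against MBMEC, -0.132 to -0.074 against 005 and 0.001 to 0.022 between untreated TDECs and TDEC day 2, and a fit with the replicate block called 3882 higher and 3054 lower against MBMEC and 785 and 617 against 005.

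Leaving out 1 library left 16235 to 16392 genes to test, against 15912 in the main fit. These fits gave 4015 to 4189 higher and 3043 to 3233 lower genes. Against 005 the range was 841 to 858 higher and 498 to 691 lower, with 498 when 005 replicate 3 was left out. Plain totals turned the balance against 005, with 742 higher and 801 lower genes, where the main counts were 821 and 687. Between untreated TDECs and TDEC day 2, leaving out 1 library gave 1688 to 1862 higher and 1459 to 1569 lower. Without TDEC day 2 replicate 3, Ccna2, Hmmr, Cx3cl1 and Ern1 were no longer called and Vcam1, Tnc, Egln2, Ccnd3, Lats2, Igfbp4 and Acta2 were. Genes with few counts in 1 group have folds known only as bounds or wide intervals.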
